A study of Mus musculus with 6 samples.

Results

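Complexes II to V of the mitochondrial respiratory chain were examined in the gastrocnemius, a calf muscle, of young and aged mice. Genes were taken by symbol, a rule that uses no measured value: the 4 succinate dehydrogenase genes Sdha to Sdhd for complex II, every symbol starting with Uqcr for complex III, every symbol starting with Cox4 to Cox8 for complex IV and every symbol starting with Atp5 for complex V. This gave 70 of the 55681 probes on the array and 47 genes: 4 of complex II, 8 of complex III, 18 of complex IV and 17 of complex V. Of these, 45 were tested among 20901 genes in all. The other two, Cox7b2 and Cox8c, known mainly from testis, were not above background on any array.

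The study compared 3 young male mice aged 13 weeks with 3 aged male mice aged 26 months. They were C57BL/6J mice, for which no genetic change or treatment is named, and 1 single-colour Agilent array was hybridised with the RNA of each muscle. The samples are called young 1 to 3 and aged 1 to 3. Signals were compared on a log2 scale on which 0 is the 75th percentile of each array, so a value of 7 is a signal 7 doublings brighter than that point. Every difference is aged minus young, on the same log2 scale. The RNA came from whole muscle, in which fewer cells of a type and less RNA per cell cannot be told apart.

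Complex II, succinate dehydrogenase, oxidises succinate in the citric acid cycle and passes the electrons to ubiquinone. Complex III takes them from ubiquinol to cytochrome c, and complex IV, cytochrome c oxidase, from cytochrome c to oxygen. Complexes III and IV pump protons across the inner mitochondrial membrane, and complex V, ATP synthase, makes ATP as the protons flow back. All subunits of complex II are encoded in the nucleus, while complexes III, IV and V also have subunits encoded by mitochondrial DNA, which the symbol rule did not take in. Several complex IV subunits exist as a form made in most tissues and a form made mainly in heart and skeletal muscle.

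All 6 arrays lay on 1 slide and were read in 1 scan. Between 48.7% and 53.8% of probes were well above background on an array, and aged 1 had the highest share. The main probe of each of the 45 genes was well above background on all 6 arrays, and no spot was saturated. In 16 genes several probes were detected, and their signs differed only in Cox7a2l and Cox8a. The probes were not checked against near-identical copies of these genes in the genome. Of 9 markers of fast muscle fibres, which make up most of this muscle, 8 were detected, Pvalb and Tnnt3 among them. Young 1 to 3 and aged 1 were in row 1 of the slide, and aged 2 and aged 3 in row 2.

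The transcripts of complexes II to V were lower on average in the aged muscle, by a small amount that no single gene carried past the threshold. Of the 45 genes, 42 had a lower mean in the aged mice and 3 a higher one, with a median log2 change of -0.28. None passed an adjusted p of 0.05 in limma, where 0.254% of all genes tested did (41 higher and 12 lower). At an unadjusted p under 0.05, 3 were lower in the aged mice, Cox5b, Sdhd and Uqcrfs1, and none was higher, against 8.36% of all genes that were lower at that level. That count of 3 was 0 under quantile normalisation and 18 when limma's prior spread followed the signal. The share of all genes under those settings is not given here. In 19 of the 45 genes (42.2%) all 3 aged mice were below all 3 young mice, against 13.9% of all genes, and in none were all 3 above. Over all 20901 genes the median change was -0.06 and 56.8% had a lower mean in the aged mice.

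The count of 19 depended on which mice were included and on the scaling. Without young 1, which had the lowest values of the young mice in most of these genes, 39 of 45 genes had every aged mouse below every young mouse, against 20.3% of all genes. Without aged 2 the count was 31, against 21.9% of all genes. It was 23 without aged 1, against 23.3% of all genes, and 19 without young 2, young 3 or aged 3, against 18.7%, 17.9% and 16.1%. It was 37, against 21.3% of all genes, with the arrays scaled to their medians, a scaling that moved the median change of all genes from -0.06 to -0.21. It was 13 under quantile normalisation (13.3% of all genes), under cyclic loess (13.1%) and with the 75th percentile taken over detected probes (11.4%).

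**Figure D1:**
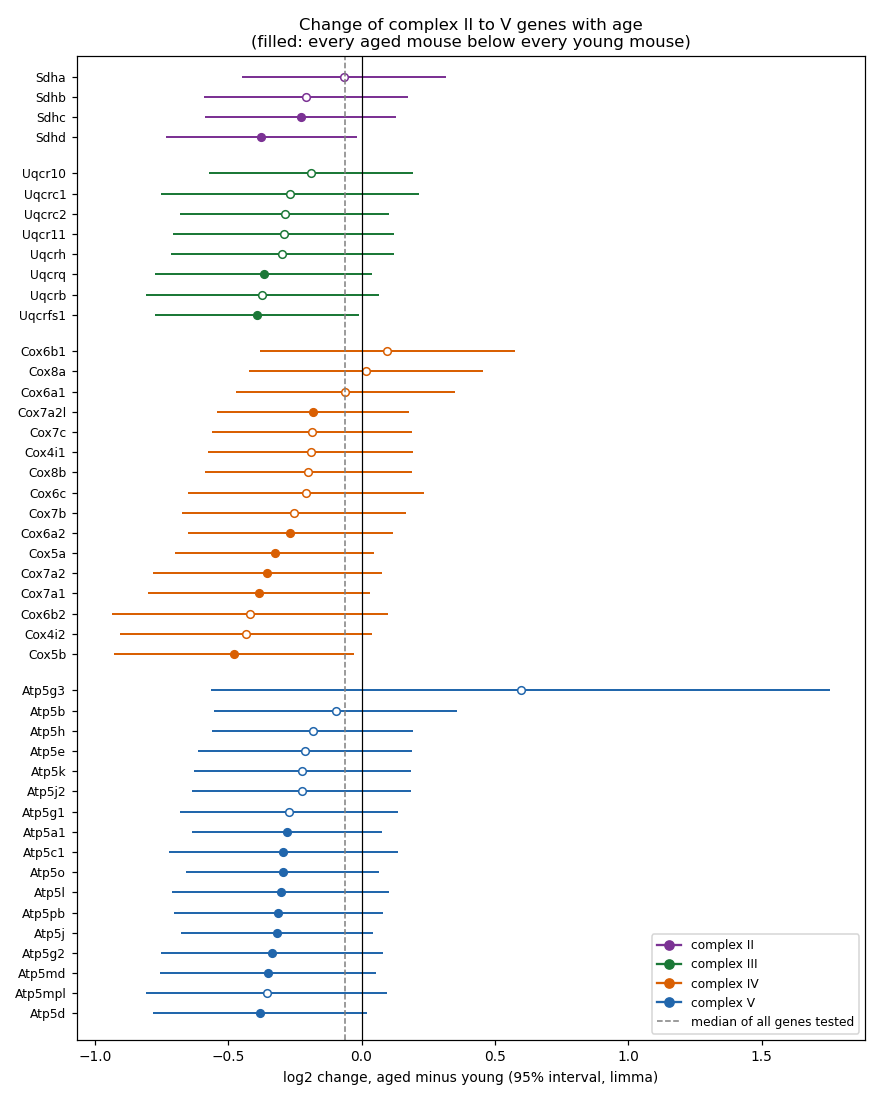
Log2 change (horizontal axis, aged minus young) of each of the 45 tested genes of complexes II to V, with its 95% interval from limma; filled points mark the 19 genes in which the groups did not overlap, and the dashed line is the median of all genes tested. The points lie to the left of 0 in 42 genes, and only the intervals of Sdhd, Uqcrfs1 and Cox5b end below 0.

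In complex II all 4 genes had a lower mean in the aged mice, with a median change of -0.22. The groups did not overlap in 2 of them, where 13.9% of all genes tested had every aged mouse below every young mouse. Sdhd, a membrane anchor of the complex, had log2 signals of 7.60, 7.69 and 7.80 in the young mice and 7.31, 7.39 and 7.26 in the aged mice, a change of -0.38 (SE 0.15, adjusted p = 0.326). No aged mouse reached the lowest young mouse, and the change was 0.771-fold. Sdhc, the other membrane anchor, had signals of 7.07, 7.08 and 6.94 in the young mice and 6.91, 6.77 and 6.73 in the aged mice, a change of -0.23 (SE 0.15, adjusted p = 0.517), again with no overlap between the groups. Sdhb, the iron-sulphur subunit, gave 8.26, 8.38 and 8.48 in the young mice and 8.02, 8.30 and 8.18 in the aged mice. Its change was -0.21 (SE 0.16, adjusted p = 0.576), and aged 2 was above young 1. For Sdha, the flavoprotein that binds succinate, the signals were 6.59, 6.72 and 6.50 in the young mice and 6.69, 6.41 and 6.52 in the aged mice. Aged 2 was the lowest mouse and aged 1 was above 2 of the young mice, and the change was -0.07 (SE 0.16, adjusted p = 0.869). The sign of Sdha was also not stable: it was positive under quantile normalisation (0.034), under cyclic loess (0.0057) and with the row of the slide as a block (0.082).

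In complex III all 8 genes had a lower mean in the aged mice, with a median of -0.29. The groups did not overlap in 2 of them, where 13.9% of all genes tested had every aged mouse below every young mouse. The lowest p was that of Uqcrfs1, the Rieske iron-sulphur protein, which hands electrons from ubiquinol on toward cytochrome c. Its log2 signals were 7.35, 7.43 and 7.53 in the young mice and 7.17, 7.09 and 6.88 in the aged mice, so that the groups did not overlap, and its change was -0.39 (SE 0.16, adjusted p = 0.336), or 0.763-fold. Uqcrq, a small subunit, had 8.17, 8.36 and 8.48 in the young mice and 7.90, 7.86 and 8.15 in the aged mice. This was the other gene of the complex with no overlap, and its change was -0.37 (SE 0.17, adjusted p = 0.384). Uqcrb, a small subunit near the ubiquinone site, had 7.89, 8.06 and 8.32 in the young mice and 7.59, 7.89 and 7.68 in the aged mice. Aged 2 was level with young 1, and the change was -0.37 (SE 0.18, adjusted p = 0.408). The core protein Uqcrc2 had 7.92, 8.17 and 8.11 in the young mice and 7.94, 7.65 and 7.75 in the aged mice and a change of -0.29 (SE 0.16, adjusted p = 0.46), with aged 1 just above young 1. Uqcrh, the hinge protein that helps cytochrome c dock, had 8.69, 8.93 and 9.13 in the young mice and 8.53, 8.70 and 8.63 in the aged mice, and its change was -0.30 (SE 0.17, adjusted p = 0.473). Aged 2 was just above young 1. Young 3 was the highest mouse in 7 of the 8 genes and aged 1 the lowest in 5. The other core protein, Uqcrc1, and the small subunits Uqcr10 and Uqcr11 had changes of -0.27, -0.19 and -0.29.

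Complex IV held both the lowest p among the 45 genes and 2 of the 3 genes with a higher mean in the aged mice. Its median was -0.23, with 14 of 16 tested genes lower on average and 6 with every aged mouse below every young mouse. The share of all genes tested with every aged mouse below every young mouse was 13.9%. It was 22.5% at a mean log2 signal of 6 to 8 and 22.9% above 8. Cox5b, the zinc-binding subunit, had log2 signals of 7.83, 7.92 and 8.02 in the young mice and 7.18, 7.72 and 7.44 in the aged mice. The groups did not overlap, aged 1 was lowest, and the change was -0.48 (SE 0.19, adjusted p = 0.324), or 0.718-fold. Cox5a, a matrix-side subunit, had 9.43, 9.65 and 9.69 in the young mice and 9.18, 9.34 and 9.27 in the aged mice. It too had no overlap, with a change of -0.33 (SE 0.16, adjusted p = 0.398). Of the remaining genes, Cox7a2l, a factor linked to supercomplexes of complexes III and IV, also had no overlap (-0.18). Its 3 detected probes disagreed in sign, from -0.21 to 0.17. Cox6c, Cox7b and Cox7c had changes of -0.21, -0.25 and -0.19, with overlap.

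Promoter sequences of the 3 genes with an unadjusted p under 0.05 and of the Cox7a1 and Cox7a2 pair are shown: the former have the lowest p of the 45 genes, and the latter are the isoform pair in which neither gene overlapped between the groups. Each is the 250 bases before the transcription start in RefSeq (build GRCm38.p6), written 5′ to 3′ on the strand of the gene. Capitals mark every match, on either strand, to 4 short motifs: GCGCANGC, the core of the NRF1 site; CCGGAA, the core bound by ETS factors such as GABP; AAGGTCA, the site of oestrogen-related receptors; and CAGCTG, an E-box of the kind bound by myogenic factors. None of the motifs contains another.
Cox5b, chr1:36691237-36691486 (plus strand): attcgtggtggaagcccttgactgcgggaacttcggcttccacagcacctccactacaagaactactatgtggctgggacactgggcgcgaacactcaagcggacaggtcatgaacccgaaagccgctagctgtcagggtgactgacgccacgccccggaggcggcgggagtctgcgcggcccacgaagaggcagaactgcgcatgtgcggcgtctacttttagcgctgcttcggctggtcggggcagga
Sdhd, chr9:50603850-50604099 (minus strand): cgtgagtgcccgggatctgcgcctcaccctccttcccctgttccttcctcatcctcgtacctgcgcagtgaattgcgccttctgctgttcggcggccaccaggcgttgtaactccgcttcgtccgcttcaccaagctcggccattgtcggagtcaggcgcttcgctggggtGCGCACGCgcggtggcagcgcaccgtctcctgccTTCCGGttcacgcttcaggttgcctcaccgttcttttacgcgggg
Uqcrfs1, chr13:30545317-30545566 (minus strand): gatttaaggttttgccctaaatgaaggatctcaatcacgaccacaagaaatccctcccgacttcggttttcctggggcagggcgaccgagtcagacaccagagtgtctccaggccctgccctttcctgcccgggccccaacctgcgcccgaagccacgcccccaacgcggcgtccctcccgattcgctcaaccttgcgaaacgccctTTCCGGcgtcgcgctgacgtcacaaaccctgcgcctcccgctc
Cox7a1, chr7:30183921-30184170 (plus strand): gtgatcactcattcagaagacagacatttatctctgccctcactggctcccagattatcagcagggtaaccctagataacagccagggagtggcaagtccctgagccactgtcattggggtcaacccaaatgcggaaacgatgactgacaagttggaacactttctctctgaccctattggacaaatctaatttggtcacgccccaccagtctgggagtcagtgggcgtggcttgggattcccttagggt
Cox7a2, chr9:79759854-79760103 (minus strand): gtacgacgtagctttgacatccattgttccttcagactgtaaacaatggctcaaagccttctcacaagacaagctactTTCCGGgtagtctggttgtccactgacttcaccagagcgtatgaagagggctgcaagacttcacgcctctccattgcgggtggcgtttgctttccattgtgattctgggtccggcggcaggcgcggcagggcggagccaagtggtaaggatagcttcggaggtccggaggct

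Sdhd held both an NRF1 core and an ETS core, Uqcrfs1 and Cox7a2 an ETS core, and Cox5b and Cox7a1 no match in this window. A RefSeq promoter was matched for 36 of the 47 genes. Among these 36, the NRF1 core occurred in 9, the ETS core in 11, the oestrogen-related receptor site in 2 and the E-box in 2. Over all 27025 promoters of the same length the shares were 8.42%, 12.2%, 4.05% and 12.8%. A match is a description of the letters only.

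The isoform pairs of complex IV were compared within each mouse, as the difference between the 2 log2 signals on the same array. A shift equal for all genes of an array drops out of it. A shift that depends on brightness does not, and the genes of a pair differ in brightness. The mean log2 signal was 10.09 for Cox6a2 and 7.03 for Cox6a1. In aged 1 the median deviation of all genes was -0.25 at signals of 6 to 8 and -0.32 above 8. In aged 2 these were -0.02 and -0.03, and in aged 3 -0.09 and -0.10. Whether the difference of a pair changed with age was tested with an exact two-sided permutation test over the 6 mice. Its smallest possible p is 0.1, and 7 pairs were tested. In the Cox6a pair, the muscle form Cox6a2 had signals of 10.07, 10.20 and 10.41 in the young mice and 9.97, 10.02 and 9.89 in the aged mice and a change of -0.27 (SE 0.16, adjusted p = 0.482). Cox6a1, the form of most tissues, had 6.88, 7.06 and 7.23 in the young mice and 6.92, 6.91 and 7.16 in the aged mice and a change of -0.06 (SE 0.17, adjusted p = 0.886). The difference Cox6a2 minus Cox6a1 was 3.19, 3.14 and 3.18 in the young mice and 3.05, 3.11 and 2.73 in the aged mice. It was lower in 3 of 3 aged mice than in any young mouse, by -0.21 on average (95% interval -0.54 to 0.12; exact p = 0.1, 0.42 after Benjamini-Hochberg adjustment over the 7 pairs). This was the only pair of the 7 in which the groups did not overlap with the processing reported. Median scaling and the mean of all probes could not change this difference. A constant of the array cancels in it, and each of the genes had 1 probe. The separation was lost with normexp background correction, quantile normalisation and cyclic loess. The change in the difference was -0.03 with normexp (exact p = 0.9), -0.13 under quantile normalisation (exact p = 0.7) and -0.16 under cyclic loess (exact p = 0.2). Without aged 3 it was -0.09, and the groups were still apart. Under quantile normalisation and cyclic loess, Cox4i2 minus Cox4i1 (-0.45 and -0.36) and Cox6b2 minus Cox6b1 (-0.61 and -0.58) reached the smallest possible exact p of 0.1 in its place.

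In the Cox7a pair both genes had a lower mean in the aged mice. Cox7a1, the muscle form, had 9.46, 9.75 and 9.92 in the young mice and 9.34, 9.31 and 9.33 in the aged mice, with no overlap and a change of -0.38 (SE 0.17, adjusted p = 0.374). Cox7a2, the form of most tissues, had 7.09, 7.33 and 7.47 in the young mice and 6.76, 7.003 and 7.07 in the aged mice, also with no overlap, and a change of -0.35 (SE 0.18, adjusted p = 0.419). Their difference overlapped between the groups, which differed by -0.03 (95% interval -0.31 to 0.25; exact p = 0.9), and its sign turned under several alternatives. For the Cox8 pair, the muscle form Cox8b had 9.27, 9.42 and 9.54 in the young mice and 9.10, 9.35 and 9.18 in the aged mice and a change of -0.20 (SE 0.16, adjusted p = 0.595). Cox8a had 6.32, 6.69 and 6.78 in the young mice and 6.69, 6.48 and 6.66 in the aged mice, with overlap and a change of 0.02 (SE 0.18, adjusted p = 0.971). Its sign differed between its 2 probes (-0.03 and 0.02) and it was negative with the arrays scaled to their medians (-0.13). Cox8b minus Cox8a differed between the groups by -0.22 (95% interval -0.65 to 0.21; exact p = 0.3).

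Cox4i and Cox6b are the other pairs of complex IV. Cox4i2, known from lung and from low oxygen, had 0.07, 0.37 and 0.43 in the young mice and 0.13, -0.20 and -0.35 in the aged mice, and its change was -0.43 (SE 0.20, adjusted p = 0.378). Aged 1 was above young 1, so the groups overlapped. Cox4i1, the form of most tissues, had 9.21, 9.49 and 9.53 in the young mice and 9.19, 9.26 and 9.20 in the aged mice and a change of -0.19 (SE 0.16, adjusted p = 0.609); under quantile normalisation it was 0.0044. Cox6b2, known from testis, had -0.85, -0.40 and -0.51 in the young mice and -0.68, -1.08 and -1.25 in the aged mice, overlapping values with a change of -0.42 (SE 0.22, adjusted p = 0.425). Its partner Cox6b1 had 5.59, 5.58 and 5.07 in the young mice and 5.64, 5.39 and 5.50 in the aged mice, with young 3 far below the others. The change of Cox6b1 was 0.10 (SE 0.20, adjusted p = 0.844), and without young 3 it was -0.075, so the higher mean rested on that mouse. Between the groups, Cox4i2 minus Cox4i1 and Cox6b2 minus Cox6b1 differed by -0.24 (95% interval -0.67 to 0.19; exact p = 0.4) and -0.52 (95% interval -1.29 to 0.26; exact p = 0.2).

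**Figure D2:**
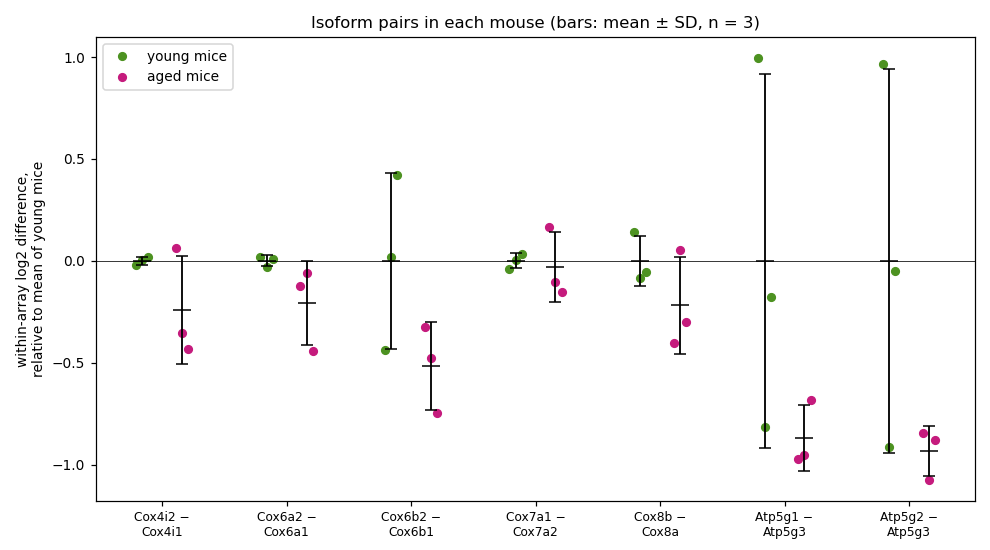
Within-array log2 difference between the 2 genes of each isoform pair, relative to the mean of the young mice (vertical axis), for each young and aged mouse, with the mean and SD of each group as bars. With the processing reported the groups are apart only for Cox6a2 minus Cox6a1. The wide bars of the Atp5g pairs come with young 1 far above and young 2 far below the young mean.

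In complex V, 16 of 17 genes had a lower mean in the aged mice and 9 had no overlap, with a median of -0.29. Atp5d, the delta subunit of the central stalk, had log2 signals of 7.53, 7.84 and 7.89 in the young mice and 7.46, 7.37 and 7.30 in the aged mice. All aged mice were below all young mice and the change was -0.38 (SE 0.17, adjusted p = 0.365), the lowest p of the complex. Atp5j, coupling factor 6 of the peripheral stalk, had 7.21, 7.26 and 7.41 in the young mice and 6.91, 7.05 and 6.96 in the aged mice and a change of -0.32 (SE 0.15, adjusted p = 0.393). For Atp5md, a small membrane subunit linked to dimers of the enzyme, the signals were 7.74, 7.93 and 8.13 in the young mice and 7.51, 7.70 and 7.54 in the aged mice and the change was -0.35 (SE 0.17, adjusted p = 0.4). Atp5o, the subunit that gives oligomycin sensitivity, had 5.84, 5.76 and 5.88 in the young mice and 5.45, 5.66 and 5.48 in the aged mice and a change of -0.30 (SE 0.15, adjusted p = 0.421). These 4 genes, from the central stalk, the peripheral stalk and the membrane part, had no overlap between the groups.

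The catalytic head of complex V gave a mixed picture. Atp5a1, its alpha subunit, had every aged mouse below every young mouse, with a change of -0.28. So had Atp5c1, the gamma subunit of the central stalk (-0.29). Atp5b, the beta subunit that carries the catalytic sites, had 8.52, 8.62 and 8.73 in the young mice and 8.21, 8.72 and 8.65 in the aged mice. Aged 1 was the lowest, while aged 2 and aged 3 lay among the young mice. Its change was -0.10 (SE 0.19, adjusted p = 0.836), and without aged 1 it was 0.059. The remaining genes were Atp5e (-0.21), Atp5h (-0.18), Atp5j2 (-0.22), Atp5k (-0.22), Atp5l (-0.30), Atp5mpl (-0.36) and Atp5pb (-0.31), of which Atp5l and Atp5pb had no overlap.

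Atp5g1, Atp5g2 and Atp5g3 encode the same mature c subunit of the membrane ring, with different targeting sequences. Atp5g2 had 9.30, 9.43 and 9.72 in the young mice and 9.14, 9.24 and 9.06 in the aged mice, with no overlap and a change of -0.34 (SE 0.17, adjusted p = 0.425). Atp5g1 had 8.99, 9.20 and 9.26 in the young mice and 8.68, 9.02 and 8.92 in the aged mice and a change of -0.27 (SE 0.17, adjusted p = 0.499), with aged 2 just above young 1. Atp5g3 had 6.12, 8.13 and 7.55 in the young mice and 7.77, 8.10 and 7.72 in the aged mice. Young 1 was far below the other 5 mice, among which the groups overlapped. The change of Atp5g3 was 0.60 (SE 0.49, adjusted p = 0.598), the only value above 0.10 among the 45 genes, and without young 1 it was 0.02. Between the groups, Atp5g1 minus Atp5g3 and Atp5g2 minus Atp5g3 differed by -0.87 (95% interval -2.36 to 0.62; exact p = 0.2) and -0.93 (95% interval -2.45 to 0.59; exact p = 0.3), values that contain the same low Atp5g3 signal of young 1. Without young 1 they were -0.37 and -0.45, and without young 2 they were -1.28 and -1.39.

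The mice of a group differed from each other in the same direction in most of the genes. Each gene was expressed as its deviation from the mean of the young mice, and the median over the 45 genes was taken in each mouse. It was -0.16 in young 1, 0.02 in young 2 and 0.13 in young 3, and -0.35 in aged 1, -0.19 in aged 2 and -0.29 in aged 3. All 3 aged mice were thus below all 3 young mice, with young 1 and aged 2 the closest. Young 3 was the highest mouse in 39 of the 45 genes and aged 1 the lowest in 27. Within each complex the medians of the aged mice were also below those of the young mice: -0.23 to -0.25 against -0.05 to 0.03 in complex II, -0.21 to -0.38 against -0.16 to 0.12 in complex III, -0.18 to -0.27 against -0.16 to 0.13 in complex IV, and -0.19 to -0.36 against -0.18 to 0.17 in complex V. In complexes IV and V young 1 and aged 2 were nearly level.

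**Figure D3:**
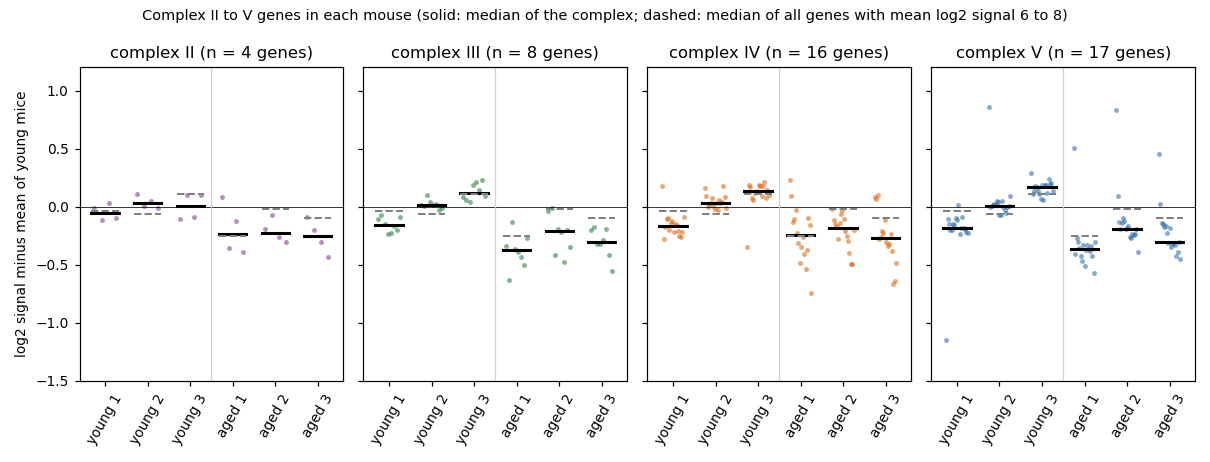
Log2 signal of each gene minus its mean in the young mice (vertical axis) in each of the 6 mice, by complex; solid lines are the median of the complex and dashed lines the median of all 1103 genes with a mean log2 signal of 6 to 8. The solid lines of the aged mice are below those of the young mice in each complex, and the dashed line of aged 1 is also low.

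These genes are bright on the array, and bright genes as a whole were lower in the aged mice. Of the 45 genes, 21 had a mean log2 signal of 6 to 8 and 19 a mean above 8. Among all 1103 genes in the band of 6 to 8 the median change was -0.12, 70.7% had a lower mean in the aged mice and 22.5% had every aged mouse below every young mouse. The 21 genes of complexes II to V in that band had a median of -0.29, with 19 lower on average and 11 without overlap. Among all 406 genes above 8 the median was -0.16, with 88.4% lower and 22.9% without overlap. The 19 genes of the complexes there had a median of -0.25, and all 19 were lower, 6 of them without overlap. Of the genes outside complexes II to V in the band of 6 to 8, 24.4% had a change below the -0.29 of the complexes. Of those above 8, 21.4% had one below -0.25.

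Taken gene by gene, the change minus the median of its own brightness band had a median of -0.14, and 39 of the 45 genes were below their band median. By complex this median was -0.08 for complex II (3 of 4 genes below), -0.16 for complex III (8 of 8), -0.09 for complex IV (13 of 16) and -0.16 for complex V (15 of 17). The 3 aged mice differed in how far equally bright genes were shifted. In aged 1 the genes of the 2 bright bands had median deviations of -0.25 and -0.32, against -0.35 for the complexes. In aged 2 they were -0.02 and -0.03 against -0.19, and in aged 3 -0.09 and -0.10 against -0.29.

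**Figure D4:**
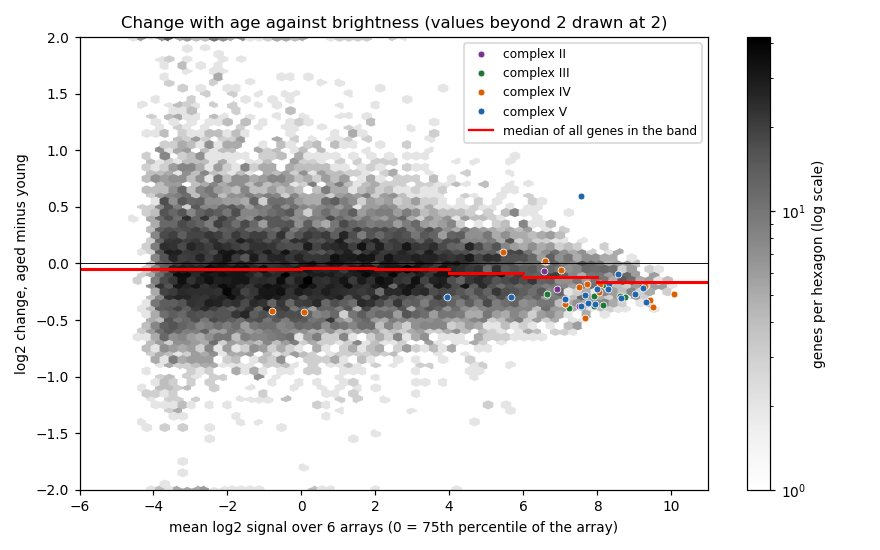
Log2 change (vertical axis, aged minus young) against mean log2 signal over the 6 arrays (horizontal axis) for all 20901 genes as grey hexagons, darker where there are more genes, with the genes of complexes II to V as coloured points and the median of all genes in each brightness band as red lines. Most coloured points lie at signals above 6 and under the red line, which falls from -0.04 below 0 to -0.16 above 8.

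Young mice were present only in row 1 of the slide, together with aged 1. With the row as a block, which compares aged 1 with the young mice, the median change of the 45 genes was -0.35 and that of equally bright genes was -0.25 and -0.32 in the 2 bands. The difference from the band was then -0.04, with 31 of 45 genes below their band median. Row 2 held aged mice alone, so within it there was no comparison, and aged 2 and aged 3 cannot be told apart from their row. With other scalings of the arrays the median change ranged from -0.14 (quantile normalisation) to -0.43 (arrays scaled to their medians), and the difference from the band from -0.12 to -0.14. When each mouse was left out in turn, the median change ranged from -0.35 to -0.21 and the difference from the band from -0.20 to -0.10.

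**Figure D5:**
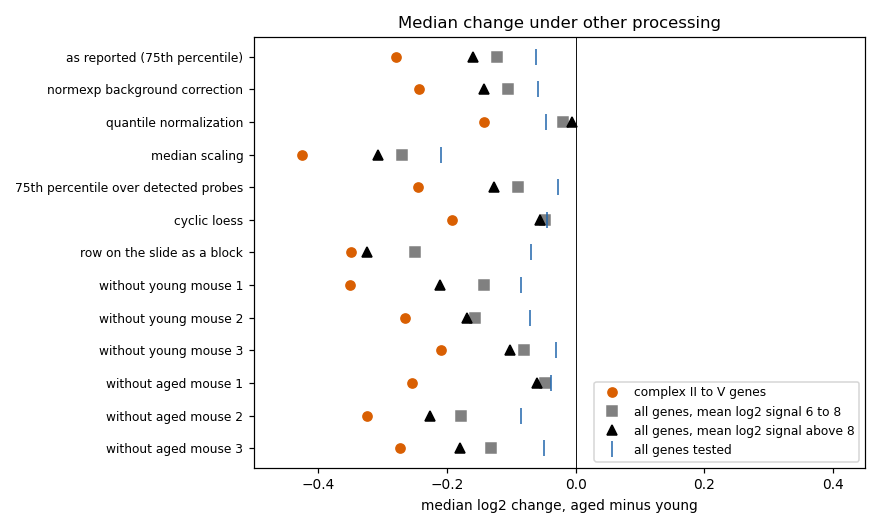
Median log2 change (horizontal axis, aged minus young) of the 45 genes of complexes II to V, of all genes in the 2 bright bands and of all genes tested, under the processing reported, 5 other scalings or background corrections, the row of the slide as a block and each mouse left out. The median of the complexes is lowest on every line of the plot, and its distance from the bright bands shrinks with the row as a block.

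The subunits that carry electrons between or within the complexes but do not share these symbols were read beside them. Cyc1, cytochrome c1 of complex III, had 8.41, 8.50 and 8.55 in the young mice and 8.25, 8.11 and 8.10 in the aged mice, with every aged mouse below every young mouse and a change of -0.33 (SE 0.15, adjusted p = 0.367). Cycs, the soluble cytochrome c, had 7.65, 8.54 and 8.68 in the young mice and 7.82, 6.92 and 6.15 in the aged mice. It was lowest in aged 2 and aged 3 and overlapped between the groups through young 1 and aged 1, and its change was -1.33 (SE 0.47, adjusted p = 0.287). The list also named Cyct and the 6 subunits of complexes III to V encoded by mitochondrial DNA, of which none was tested. None of the subunits encoded by mitochondrial DNA was matched to a probe by symbol.

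The factors that assemble the complexes did not share the lower values throughout. Of 18 tested assembly factors of complex IV, 8 were lower and 10 higher on average, with a median of 0.03, none past the threshold and none without overlap. Cox20 (-0.37) and Cox11 (-0.35) were the lowest and Coa4 (0.31) and Surf1 (0.28) the highest. Among 5 factors of complex III, 2 were lower and the median was 0.01. Among 4 of complex II, 3 were lower, with a median of -0.16. All 4 of complex V were lower, with a median of -0.28, 2 of them without overlap. Over all genes tested, 13.9% had every aged mouse below every young mouse. Most of these factors had a mean log2 signal under 6, where the median of all genes was closer to 0. The difference between subunits and assembly factors was not tested.

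Complex I and the citric acid cycle, the nearest neighbours in metabolism, were read in the same way. Of 38 complex I subunits, 35 were lower on average and 19 had no overlap, with a median of -0.27. Of 13 citric acid cycle enzymes other than complex II, 10 were lower and 5 had no overlap, with a median of -0.25. After subtracting the median of the brightness band the medians were -0.12 and -0.12, against -0.14 for complexes II to V. None of these genes passed the threshold. Among 11 regulators of mitochondrial biogenesis, 6 were lower and 5 higher, none past the threshold. Esrra, the oestrogen-related receptor alpha, had 6.62, 6.85 and 6.83 in the young mice and 6.48, 6.23 and 6.05 in the aged mice, with no overlap and a change of -0.51 (SE 0.18, adjusted p = 0.285). Tfb1m, a mitochondrial rRNA methyltransferase, had 2.14, 1.80 and 2.35 in the young mice and 2.38, 2.82 and 2.85 in the aged mice, with every aged mouse above the young mice and a change of 0.59 (SE 0.22, adjusted p = 0.303). Pprc1, a relative of PGC-1 alpha, had -1.66, -1.95 and -1.35 in the young mice and -1.56, -0.97 and -0.77 in the aged mice, overlapping values with a change of 0.55 (SE 0.26, adjusted p = 0.398). Ppargc1a, the coactivator PGC-1 alpha, had 3.43, 2.83 and 3.43 in the young mice and 3.42, 3.27 and 2.97 in the aged mice, overlapping values with a change of -0.02 (SE 0.23, adjusted p = 0.978).

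Markers of fibre types and of other cells also differed between the groups. Signals were summed over each list, in multiples of the 75th percentile of the array. Markers of slow, oxidative fibres were lower on average in 9 of 9 genes, with a median of -0.58, and summed to 1828 to 2376 in the young and 1294 to 1768 in the aged mice. Fast fibre markers were lower in 7 of 8, with a median of -0.17, and summed to 5187 to 6264 and 4344 to 5466. The fast fibre marker that was higher changed by 1.29. Erythrocyte genes were lower in 5 of 5 (635 to 922 against 289 to 459), Schwann cell genes in 7 of 8 (25.1 to 44.7 against 22.1 to 40.3), with Prx past the threshold, and adipocyte genes in 4 of 5 (55.1 to 61.2 against 39.6 to 63.1). Macrophage genes were higher in 8 of 9 (24.4 to 26.1 against 28.6 to 35.2), with a median of 0.55. Of the brown adipocyte markers 3 of 4 were higher (12.2 to 14.3 against 12.1 to 17.7), with a median of 0.17, while Ucp1 was not among those detected. The signals of complexes II to V summed to 12610 to 15733 in the young and 11375 to 12538 in the aged mice. The part of fibre type or of other cells in the values of the complexes was not tested.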

How the data were processed

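Gene expression was measured in the gastrocnemius of 3 young and 3 aged mice, with 1 single-colour array per mouse, from total RNA purified with a column kit and labelled with Cy3. The authors deposited linear intensities, which their Agilent Feature Extraction software had processed (version 9.5 in the submitters' processing notes, 11.0.1.1 in the file headers). It subtracted the background and removed trends within each array, but did not scale the arrays to each other. The deposited value table held the same intensities. The array was designed on another genome build, so no gene coordinates are given, and the promoter sequences and gene symbols come from RefSeq (GRCm38.p6).

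Flagged spots were left out, the remaining spots of a probe were averaged as log2 signals, and each array was centred on its own 75th percentile. A probe was kept when well above background on at least 3 of 6 arrays, and a gene was represented by its kept probe with the highest mean among those saturated on no array. Accessions gave a symbol to 28331 of 55681 probes. Groups were compared over 20901 genes with limma (version 3.58.1, R 4.3.3; lmFit, then eBayes), with Benjamini-Hochberg adjustment and a threshold of 0.05, and isoform pairs with exact two-sided permutation tests in scipy 1.17.1. The fit was tested on simulated data. The number of arrays, 3 per group, limits the precision, and the labels do not say whether the mice of a group shared a cage or litter. Same-numbered mice of the 2 groups did not deviate together (correlations -0.06, -0.27 and 0.03), so the numbers pair no samples.

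All members are accounted for. Values per mouse are given for members past the threshold, for the 5 with the lowest p in each complex (all 4 in complex II), for both genes of each isoform pair, and for the gene with the brightest probe of each complex. The genes, lists and tests were chosen with earlier results of these data known. The alternatives were normexp background correction (offset 50), quantile, median and cyclic loess scaling, the 75th percentile over detected probes, other filters, the mean of all probes, a mean-variance trend, the row of the slide or the replicate number as a block, and each mouse left out.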

Additional observations from a re-analysis of the deposited data

How the results depend on the processing

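No gene of complexes II to V passed the threshold under any of the 20 alternatives, where the lowest adjusted p was 0.199. Of 900 values (45 genes under 20 alternatives) 17 had the opposite sign, in 6 genes, and the other 39 genes kept their sign. Many of the 900 repeat the reported fit, so they say little about how stable the signs are. The mean-variance trend, the replicate block, the filters on dim or saturated probes and the deposited value table left these changes as they were. The 3 arrays per group limit what could be called. The spread between mice of one age differed from gene to gene. For Atp5b the SD was 0.11 in the young and 0.27 in the aged mice, with a change of -0.10. For Sdhd it was 0.10 and 0.07, with a change of -0.38.

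The number of all genes past the threshold, 53, was 8 without a filter on dim probes, 35 where a probe had to be well above background on every array and 1 to 199 with a mouse left out (1 without aged 3, 199 without aged 1, and 8 or 9 without another mouse). With the replicate number as a block, which does not pair the samples, 5 genes passed and none of the complexes' genes did so at an unadjusted p under 0.05 (0 genes).

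At that unadjusted level the complexes held 3 genes in the reported fit, where 8.36% of all genes were lower. The count was 11 with normexp, 6 with median scaling and 18 with a mean-variance trend. It was 1 when the 75th percentile was taken over detected probes, 1 with cyclic loess and 0 with quantile normalisation. Without the filter on dim probes it was 0, and with a mouse left out 0 to 3. The share of all genes under these settings is not given here, so the counts cannot be set against it. The number with every aged mouse below every young mouse, 19, was 37 with median scaling, 13 under quantile normalisation, cyclic loess and the percentile over detected probes, and 19 to 39 with a mouse left out (all genes: 21.3%, 13.3%, 13.1%, 11.4% and 16.1% to 23.3%, against 13.9%); this count was put through the alternatives after seeing the data.

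The median change under quantile normalisation and under median scaling was -0.14 and -0.43 for complexes II to V, -0.11 and -0.36 for complex II, -0.16 and -0.44 for complex III, -0.082 and -0.38 for complex IV, and -0.15 and -0.44 for complex V. That of complex II was also -0.16 with normexp, -0.18 when scaled on detected probes, -0.13 with cyclic loess and -0.30 with the mean of all probes.

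The sign turned for Sdha (0.034 quantile, 0.0057 cyclic loess, 0.082 row block), Cox4i1 (0.0044 quantile), Cox6a1 (0.044 quantile, 0.017 cyclic loess), Atp5b (0.042 quantile, 0.0037 cyclic loess), Cox6b1 (-0.050 median scaling) and Cox8a (-0.130 median scaling, -0.0071 mean of probes). With a mouse left out it turned for Cox6a1 (0.025 without young 3), for Cox6b1 (-0.075 without young 3, 0.186 at the highest), for Cox8a (-0.12 without young 1 to 0.11, and below 0 without aged 1 or aged 3) and for Atp5b (-0.19 to 0.059, the last without aged 1). Cox4i2 minus Cox4i1 was 0.062 with the row as a block. Cox7a1 minus Cox7a2 was 0.011 with normexp, 0.052 with quantile, 0.0062 with cyclic loess, 0.168 with the row as a block and -0.13 to 0.03 with a mouse left out (0.007 without aged 2, 0.031 without aged 3). With other processing and with a mouse left out, Cox6a2 minus Cox6a1 ranged from -0.21 to -0.03 and from -0.28 to -0.09, Cox8b minus Cox8a from -0.40 to -0.14 and from -0.35 to -0.12, Cox6b2 minus Cox6b1 from -0.61 to -0.33 and from -0.74 to -0.30, Cox4i2 minus Cox4i1 from -0.45 to 0.06 and from -0.39 to -0.15, Atp5g1 minus Atp5g3 from -0.97 to -0.81 and from -1.28 to -0.37, and Atp5g2 minus Atp5g3 from -0.93 to -0.84 and from -1.39 to -0.45. The cause of these changes was not tested.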
